A study of Mus musculus with 21 samples.

Results

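The BCL2 family genes described here are 10 genes of the mitochondrial cell death pathway that were chosen by name from the deposited expression table of 13202 genes. All 10 were found in the table and all 10 passed the filter on low values, under which 12630 genes were tested. They comprise 4 survival genes (Bcl2, Bcl2l1, Mcl1 and Bcl2a1b), 4 genes of the BH3-only group (Bcl2l11, Bbc3, Pmaip1 and Bid) and the 2 pore-forming effectors (Bax and Bak1).

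BCL2 family proteins decide whether the outer mitochondrial membrane is opened to let cytochrome c out and start the caspases. The effectors BAX and BAK open the membrane, the survival proteins hold them and their activators in check, and the BH3-only proteins, which carry a single homology domain, bind the survival proteins or the effectors and so promote death. In T cells BCL2 is known as the survival protein of resting and cytokine-maintained cells, BCL-XL (the product of Bcl2l1) and A1 (the product of Bcl2a1 genes) are induced by receptor stimulation, MCL1 is a short-lived protein needed at most stages, and BIM (the product of Bcl2l11) is a main killer of activated cells after an immune response.

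Poly(A) RNA was sequenced in 21 libraries from mouse T cells that were isolated as untouched CD8 cells from spleen and lymph nodes, activated for 48 h, and kept in 10 ng/mL IL-2 until harvest on day 8. They fell into 7 groups of 3 libraries in 3 experiments. Polyclonal acute and polyclonal chronic were C57BL/6 cells activated with plate-bound anti-CD3 and anti-CD28, then cultured without (acute) or with (chronic) plate-bound anti-CD3 renewed every 48 h. OT-I acute and OT-I chronic were OT-I TCR transgenic cells, whose receptor recognises the ovalbumin peptide SIINFEKL, activated with that peptide and then cultured with IFN-γ-treated (1 ng/mL) B16-F10 melanoma cells, to which the peptide was (chronic) or was not (acute) added, every 48 h. Vehicle acute and vehicle chronic were C57BL/6 cells handled as the polyclonal ones with a vehicle, and NAC chronic were chronically stimulated C57BL/6 cells with 10 mM N-acetylcysteine, a thiol antioxidant, from 48 h after the first stimulus. Acute cells with N-acetylcysteine were not analysed here. The labels do not say that the 3 libraries of a group came from separate cultures or animals, so the spread behind each p-value is that between these libraries and may be only technical.

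Levels are given in RPKM, reads scaled to gene length and to library size, as the mean ± SD of 3 libraries or library by library. A change is a log2 difference on the log2(RPKM + 1) scale, with its standard error (SE), from 1 limma fit of all 21 libraries. It was called when the Benjamini-Hochberg adjusted p over all tested genes was under 0.05. Between 5347355 and 15147347 reads fell in genes in each polyclonal library, between 13121180 and 25218890 in each OT-I one and between 14421378 and 17539278 in each of those with vehicle or NAC. The members held 78 to 16067 reads in each library. In 3 libraries, polyclonal acute 2, polyclonal chronic 2 and OT-I acute 3, the lower quartile of RPKM lay above the other libraries of the group (2.91 against 1.81 and 2.08, 2.74 against 2.16 and 2.07, and 4.32 against 3.73 and 3.62). These were also the shallowest library of their groups.

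The labelled cell type was checked against marker genes. The list named CD8 T cell held Cd8a and Cd8b1 beside Cd3e, Cd3d, Cd3g, Cd2 and Cd5, which are not particular to CD8 cells. Polyclonal chronic stood against its label: Cd8a had 8.48 ± 0.165 RPKM there and 101 ± 0.556 RPKM in polyclonal acute, while Cd4 had 312 ± 8.04 and 67.5 ± 2.99 RPKM. The 7 listed B cell markers summed to 223 RPKM in polyclonal chronic (210.3 to 231.7 by library) and to 8.62 RPKM in polyclonal acute (3.41 to 15.6). In the OT-I libraries 12 listed melanocyte genes summed to 8215 RPKM without peptide (8092 to 8382) and to 4759 RPKM with it (4692 to 4813), so RNA of tumour cells was part of what was measured. In the vehicle and NAC experiment Cd8a had 87.1, 145 and 138 RPKM and Cd8b1 179, 88.8 and 184 RPKM in vehicle acute, vehicle chronic and NAC chronic. There the 12 melanocyte genes summed to 12.1, 2.64 and 9.81 RPKM in these groups. Among them Tyrp1 was listed at 0 in all 9 libraries, while Gpnmb had 6.63 RPKM in vehicle acute. The B cell markers summed to 3.98 to 10.8 RPKM by group. In polyclonal acute and polyclonal chronic the same melanocyte genes summed to 56.9 and 58.8 RPKM, with Tyrp1 at 9.67 and 7.16 RPKM. In such bulk samples, fewer cells of a type and less RNA per cell cannot be told apart. The part of these other cells in the results below was not tested.

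Bcl2a1b belongs to a cluster of near-identical mouse genes that encode the survival protein A1, so its values were read together with those of its copy Bcl2a1d. The coding sequences of Bcl2a1a, Bcl2a1b and Bcl2a1d are each 516 bases long in the GENCODE annotation of GRCm38, on chromosome 9. Against Bcl2a1b, Bcl2a1d differs at 6 coding bases (98.8% identity) and Bcl2a1a at 11 (97.9%). Of all windows of 50 bases in the Bcl2a1b transcript, 57.6% are also found in another of the 3 copies. The first 90 coding bases show how little separates them, with the 6 positions at which the 3 copies are not all alike in capitals.
Bcl2a1a: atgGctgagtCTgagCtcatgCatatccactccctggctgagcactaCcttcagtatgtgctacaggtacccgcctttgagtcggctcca
Bcl2a1b: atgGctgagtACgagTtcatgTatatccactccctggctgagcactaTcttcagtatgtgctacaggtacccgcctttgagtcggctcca
Bcl2a1d: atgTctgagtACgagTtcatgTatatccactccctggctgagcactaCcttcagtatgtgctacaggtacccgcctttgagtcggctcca
The sources used here do not say how reads matching several copies were counted, so the split between Bcl2a1b and Bcl2a1d is uncertain. Bcl2a1a was not used here.

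**Figure D1:**
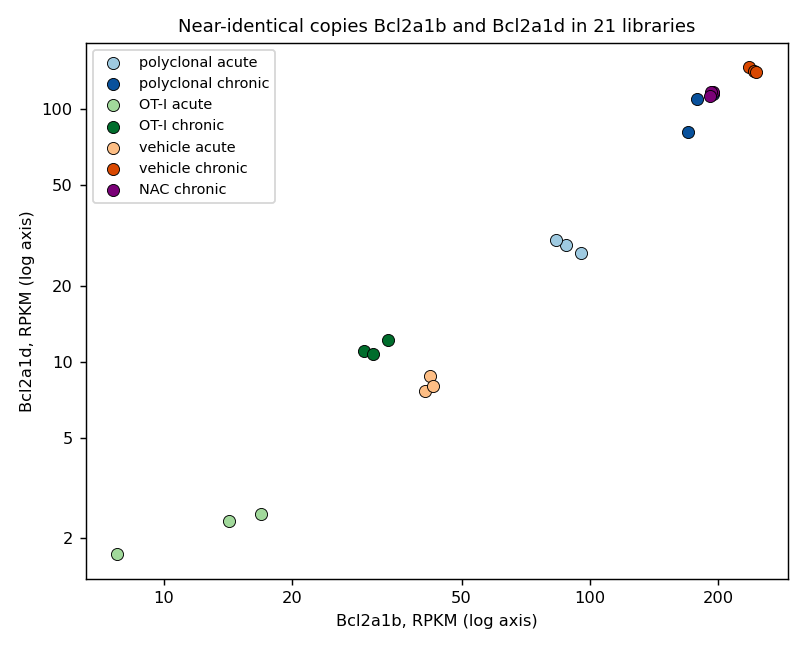
RPKM of Bcl2a1b (x axis, log scale) and of its near-identical copy Bcl2a1d (y axis, log scale) in each of the 21 libraries, with colours for the 7 groups. Both are lowest in OT-I acute and highest in vehicle chronic, and OT-I acute 3 lies below the other 2 libraries of its group.

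Promoter windows of the same copies are shown because their values moved together, although their reads may not be fully separated. That of Bcl2l11 is shown because its direction differed between the experiments. RefSeq windows of 300 bases (250 before and 50 from the start site on, GRCm38.p6) were matched for 9 of the 10 members. Capitals mark matches to the motifs searched on both strands. In Bcl2a1b (chr9:89199023-89199322, plus strand) and Bcl2a1d (chr9:88731801-88732100, minus strand) these were ATTTTCC, the reverse complement of the NFAT motif GGAAAAT, and the C/EBP-ATF composite TGATGCAA.
Bcl2a1b: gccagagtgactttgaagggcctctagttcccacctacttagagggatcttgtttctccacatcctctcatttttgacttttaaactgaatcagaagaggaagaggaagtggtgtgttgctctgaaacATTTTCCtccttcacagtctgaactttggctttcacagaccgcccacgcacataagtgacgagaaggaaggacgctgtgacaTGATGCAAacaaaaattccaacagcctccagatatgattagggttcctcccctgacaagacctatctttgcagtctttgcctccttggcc
Bcl2a1d: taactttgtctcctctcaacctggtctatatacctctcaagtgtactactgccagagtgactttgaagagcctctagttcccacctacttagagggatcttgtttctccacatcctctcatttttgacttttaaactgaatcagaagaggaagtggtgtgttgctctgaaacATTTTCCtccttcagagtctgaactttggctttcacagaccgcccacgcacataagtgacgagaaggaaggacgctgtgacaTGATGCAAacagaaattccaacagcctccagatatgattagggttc
The first base of the NFAT match lies at −122 from the Bcl2a1b start and at −78 from the Bcl2a1d start, and that of the composite at −40 and 4, inside a stretch that both windows share. NFAT, which calcineurin brings to the nucleus after T cell receptor signalling, has this motif in 4.82% of 32851 promoters of the same length, and the composite is in 0.895%. In the first of the Bcl2l11 windows (chr2:128125788-128126087, plus strand) the capitals are the FOXO motif GTAAACA, at −227. FOXO factors are background knowledge as activators of this gene when growth factor signalling falls.
Bcl2l11: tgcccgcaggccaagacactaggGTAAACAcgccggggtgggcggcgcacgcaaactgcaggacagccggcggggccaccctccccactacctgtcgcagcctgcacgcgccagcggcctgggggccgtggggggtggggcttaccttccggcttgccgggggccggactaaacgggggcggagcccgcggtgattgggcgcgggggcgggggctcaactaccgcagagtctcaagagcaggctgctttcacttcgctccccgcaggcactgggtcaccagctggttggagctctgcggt
The FOXO motif is in 3.65% of promoters, and the other Bcl2l11 window held none of the motifs searched. Among other members 1 of the Bbc3 windows held the FOXO motif, in its reverse complement, and another the E-box CACGTG, which is in 7.15% of promoters. Bax held the E-box as well. No match was found in any member's window for AP-1 (TGAGTCA, 5.20% of promoters), CRE (TGACGTCA, 1.79%), the kappa B consensus (0.155%), STAT (TTCNNNGAA, 8.30%) or E2F (TTTCCCGC, 1.07%). A match describes letters only, and says nothing of binding in these cells.

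**Figure D2:**
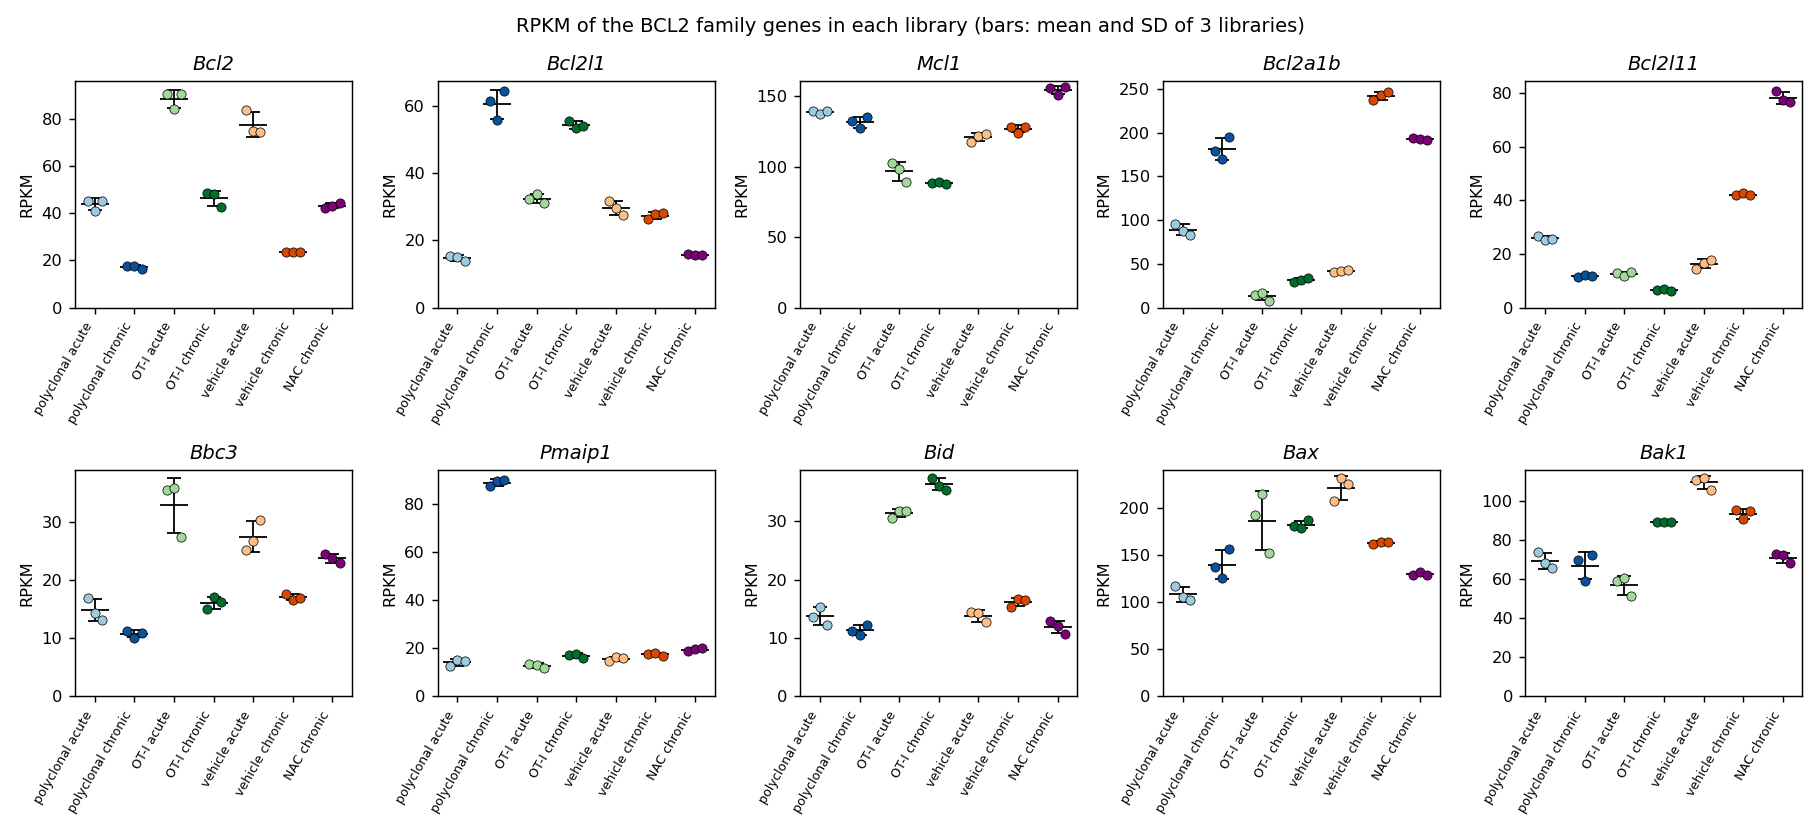
RPKM of each of the 10 genes (y axes, linear from 0) in every library of the 7 groups (x axes), with the mean and SD of 3 libraries as bars. Bcl2 is lower in the chronic than in the acute group of each experiment, and Bcl2l1 and Pmaip1 are highest in polyclonal chronic.

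Libraries of the 2 groups compared did not overlap for 8 of 10 members in the polyclonal, 9 in the OT-I and 9 in the vehicle comparison, where the shares over all genes were 59.6%, 65.1% and 73.1%. Between NAC chronic and vehicle chronic this held for all 10 members (75.8% of genes), and between NAC chronic and vehicle acute for 9 (77.9%).

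Bcl2 was lower after chronic stimulation in all 3 experiments. It had 45.04, 41.0 and 45.3 RPKM in polyclonal acute and 17.6, 17.8 and 16.4 in polyclonal chronic. The OT-I libraries had 90.6, 84.0 and 90.5 RPKM without peptide and 48.4, 47.9 and 42.5 with it, and the vehicle libraries 83.5, 74.6 and 74.2 RPKM in the acute and 23.5, 23.7 and 23.6 in the chronic group. No acute library overlapped a chronic one within an experiment. Bcl2 fell by 1.29 on the log2 scale in polyclonal cells (SE 0.058, adjusted p = 6.74e-14), by 0.92 in OT-I co-cultures (SE 0.058, adjusted p = 5.04e-11) and by 1.67 in vehicle cells (SE 0.058, adjusted p = 1.30e-15). NAC chronic cells had 42.1, 43.2 and 44.4 RPKM, above every vehicle chronic library and below every vehicle acute one. The log2 change was 0.85 against vehicle chronic (SE 0.058, adjusted p = 1.10e-10) and -0.82 against vehicle acute (SE 0.058, adjusted p = 1.04e-10). In the order of levels, the group means ran from 17.3 RPKM in polyclonal chronic to 88.4 in OT-I acute, and NAC chronic, polyclonal acute and OT-I chronic overlapped as neighbours.

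Bcl2l1, the gene of the receptor-induced survival protein BCL-XL, rose in the polyclonal and, by less, in the OT-I experiment, and was not called in the vehicle one. Polyclonal libraries had 15.4, 14.9 and 13.8 RPKM in the acute and 61.4, 55.8 and 64.3 in the chronic group, with no overlap. The log2 change was 1.97 (SE 0.057, adjusted p = 6.57e-17). OT-I libraries had 32.2, 33.8 and 31.03 RPKM without peptide and 55.4, 53.3 and 53.9 with it, again with no overlap, and a log2 change of 0.73 (SE 0.057, adjusted p = 1.35e-09). Vehicle libraries overlapped, with 31.6, 29.5 and 27.4 RPKM in the acute and 26.2, 27.9 and 28.0 in the chronic group, and the log2 change of -0.10 (SE 0.057) missed the threshold (adjusted p = 0.130). Without vehicle acute 3 it passed (-0.15, adjusted p = 0.0369). NAC chronic libraries, at 15.9, 15.5 and 15.7 RPKM, were below all vehicle libraries, acute and chronic. Against vehicle chronic Bcl2l1 fell by 0.76 on the log2 scale (SE 0.057, adjusted p = 4.42e-10).

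Mcl1, whose protein is short-lived and is degraded on binding by NOXA (the product of Pmaip1), had the narrowest range of the survival genes. Its group means ran from 88.4 ± 0.636 RPKM in OT-I chronic to 154 ± 2.94 RPKM in NAC chronic, a 1.74-fold span. Polyclonal cells had 138 ± 1.26 RPKM in the acute and 131 ± 3.91 in the chronic group, and vehicle cells 121 ± 2.83 and 127 ± 2.38 RPKM. Neither change was called (adjusted p = 0.144 and 0.192). In OT-I co-cultures Mcl1 had 102, 98.1 and 89.2 RPKM without peptide and 88.6, 88.9 and 87.7 with it, so the nearest libraries of the groups almost met. That log2 change of -0.12 was called (SE 0.044, adjusted p = 0.0220), but not with libraries rescaled to a common median (-0.03, adjusted p = 0.651), nor without OT-I acute 1 (-0.08, adjusted p = 0.144), OT-I acute 2 (-0.11, adjusted p = 0.0608) or OT-I chronic 3 (-0.12, adjusted p = 0.0591). NAC chronic libraries had 156, 151 and 156 RPKM against 128, 124 and 128 in vehicle chronic. This log2 change of 0.28 (SE 0.044, adjusted p = 1.39e-05) was 0.11 on rescaling, where it was not called (adjusted p = 0.122).

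Bcl2a1b had the widest range of the members. Its group means ran from 12.98 ± 4.69 RPKM in OT-I acute to 242 ± 4.63 RPKM in vehicle chronic, an 18.7-fold span. It rose with chronic stimulation in every experiment and no acute library overlapped a chronic one. Polyclonal libraries went from 95.4, 88.1 and 83.2 RPKM to 179, 169.996 and 195 RPKM (log2 change 1.02, SE 0.15, adjusted p = 6.06e-06). In OT-I co-cultures the libraries had 14.3, 16.9 and 7.78 RPKM without peptide and 29.5, 31.04 and 33.7 with it (log2 change 1.27, SE 0.15, adjusted p = 5.24e-07). Without OT-I acute 3, the low library and 1 of the 3 with raised low genes, that change was 0.97 and was still called. Vehicle libraries had 41.0, 42.1 and 42.8 RPKM in the acute and 237, 243 and 246 in the chronic group (log2 change 2.50, SE 0.15, adjusted p = 1.19e-11). NAC chronic libraries had 194, 192 and 191 RPKM, below every vehicle chronic one. The log2 change of -0.33 (SE 0.15) missed the threshold in the fit of all libraries (adjusted p = 0.0674), but was called with only the compared groups in the fit (adjusted p = 1.15e-05) and on rescaling (-0.50, adjusted p = 0.0111). The SE of Bcl2a1b is shared by all groups, and the SD relative to the mean was largest in OT-I acute.

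The copy Bcl2a1d followed Bcl2a1b at lower levels. It had 28.8 ± 1.64 RPKM in polyclonal acute and 102 ± 18.1 in polyclonal chronic, 2.19 ± 0.408 and 11.3 ± 0.772 RPKM in the OT-I groups, and 8.17 ± 0.573 and 143 ± 3.56 RPKM in the vehicle groups. Its log2 changes were 1.78, 1.96 and 3.98, each called. In NAC chronic it had 116 ± 2.06 RPKM.

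Bcl2l11, the gene of BIM, changed in opposite directions between experiments. Polyclonal libraries had 26.7, 25.4 and 25.7 RPKM in the acute and 11.6, 12.4 and 11.9 in the chronic group. It fell there by 1.06 on the log2 scale (SE 0.061, adjusted p = 5.01e-12). OT-I libraries had 12.98, 11.9 and 13.2 RPKM without peptide and 6.75, 6.92 and 6.12 with it, a fall by 0.85 (SE 0.061, adjusted p = 4.22e-10). Vehicle libraries had 14.5, 16.8 and 17.9 RPKM in the acute and 41.9, 42.7 and 42.1 in the chronic group. Here the log2 change was 1.32 (SE 0.061, adjusted p = 1.63e-13). NAC chronic cells had the highest level of any group, with 80.8, 77.5 and 76.7 RPKM. The log2 change was 0.88 against vehicle chronic (SE 0.061, adjusted p = 1.65e-10) and 2.19 against vehicle acute (SE 0.061, adjusted p = 4.43e-17). No 2 groups overlapped in any of these 5 comparisons.

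Pmaip1, a p53 target whose product NOXA binds MCL1 and A1, stood out in a single group. It had 12.47, 15.3 and 14.8 RPKM in polyclonal acute and 87.4, 89.6 and 89.97 in polyclonal chronic (log2 change 2.57, SE 0.068, adjusted p = 1.80e-17). In the other 6 groups its means lay between 12.8 and 19.5 RPKM. OT-I libraries had 13.5, 13.2 and 11.7 RPKM without peptide and 17.1, 17.8 and 15.8 with it (log2 change 0.37, SE 0.068, adjusted p = 1.01e-04). In the vehicle experiment it had 14.6, 16.2 and 16.1 RPKM in the acute, 17.5, 18.1 and 16.7 in the chronic and 18.7, 19.6 and 20.1 in the NAC chronic group. Neither the log2 change of 0.15 between vehicle groups (adjusted p = 0.0637) nor that of 0.15 between NAC and vehicle chronic (adjusted p = 0.0612) was called. With the replicate number as a block both were called (0.15, adjusted p = 0.0280, and 0.15, adjusted p = 0.0269). Both were also called with only the compared groups in the fit (adjusted p = 0.0401 and 0.0142). The same held without the 3 libraries with raised low genes (adjusted p = 0.0316 and 0.0306). The change between vehicle groups was called on rescaling (0.17, adjusted p = 0.0397) and with voom (0.23, adjusted p = 0.00699) as well. On rescaling, the change between NAC and vehicle chronic was -0.01.

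Bbc3, another p53 target, whose product PUMA binds all survival proteins, was lower after chronic stimulation in each experiment. Polyclonal libraries had 17.03, 14.4 and 13.2 RPKM in the acute and 11.3, 10.1 and 10.9 in the chronic group (log2 change -0.42, SE 0.093, adjusted p = 5.01e-04). OT-I libraries had 35.5, 35.8 and 27.4 RPKM without peptide and 15.1, 17.1 and 16.3 with it (log2 change -0.97, SE 0.093, adjusted p = 2.59e-08). The vehicle libraries had 25.3, 26.9 and 30.4 RPKM in the acute and 17.7, 16.6 and 16.97 in the chronic group (log2 change -0.65, SE 0.093, adjusted p = 4.38e-06). No groups overlapped in these 3 comparisons. NAC chronic libraries, at 24.6, 23.8 and 23.03 RPKM, lay between vehicle chronic and vehicle acute. Bbc3 rose by 0.45 against vehicle chronic (SE 0.093, adjusted p = 2.87e-04).

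Bid, whose product caspase-8 cleaves to link death receptors to mitochondria, was highest in the OT-I co-cultures. It had 31.4 ± 0.671 RPKM without peptide and 36.4 ± 1.06 with it, against 11.4 to 16.1 RPKM in the means of the other 5 groups. The OT-I change of 0.21 was called (SE 0.074, adjusted p = 0.0223), as was that of 0.21 in vehicle cells, from 13.8 ± 0.955 to 16.1 ± 0.722 RPKM (adjusted p = 0.0168). The OT-I call was lost without OT-I acute 1 (0.19, adjusted p = 0.0679) or OT-I chronic 1 (0.18, adjusted p = 0.0763). The vehicle call was lost without vehicle acute 3 (0.16, adjusted p = 0.0981), vehicle chronic 2 (0.19, adjusted p = 0.0603) or vehicle chronic 3 (0.20, adjusted p = 0.0531). Polyclonal libraries overlapped, with 13.6, 15.3 and 12.3 RPKM in the acute and 11.3, 10.6 and 12.3 in the chronic group. Their log2 change of -0.25 was called (SE 0.074, adjusted p = 0.00651), but not without polyclonal acute 2 (-0.17, adjusted p = 0.0546) or without all 3 libraries with raised low genes (-0.12, adjusted p = 0.169). NAC chronic cells had 12.8, 11.99 and 10.8 RPKM, below all vehicle chronic libraries at 15.3, 16.6 and 16.5, and Bid fell by 0.42 (SE 0.074, adjusted p = 6.02e-05). Bid shares exon bases with Bcl2l13 on the opposite strand in GENCODE, and the deposited values may not separate their reads.

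Bax and Bak1 encode the proteins that open the mitochondrial membrane. The mean RPKM of Bax was above that of each BH3-only gene in all 7 groups, and that of Bak1 in all but polyclonal chronic (below Pmaip1) and NAC chronic (below Bcl2l11). Bax had 117, 106 and 102 RPKM in polyclonal acute and 138, 126 and 157 in polyclonal chronic, with no overlap and a log2 change of 0.36 (SE 0.092, adjusted p = 0.00168). It had 208, 232 and 226 RPKM in vehicle acute and 162, 165 and 165 in vehicle chronic, also with no overlap, and fell there by 0.44 (SE 0.092, adjusted p = 3.63e-04). NAC chronic libraries, at 129, 132 and 129 RPKM, were below both, and Bax fell by 0.33 against vehicle chronic (SE 0.092, adjusted p = 0.00383). In OT-I co-cultures the libraries without peptide, at 193, 215 and 153 RPKM, spread on both sides of those with it, at 181, 179.6 and 187. That log2 change of -0.02 was not called (adjusted p = 0.869), and its sign turned to 0.07 on rescaling.

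Bak1 had 58.9, 60.5 and 51.2 RPKM in OT-I acute and 89.2, 89.4 and 89.3 in OT-I chronic, with no overlap. Its log2 change there was 0.65 (SE 0.067, adjusted p = 8.29e-08). In vehicle cells it went the other way, from 111, 112 and 106 to 95.2, 90.6 and 94.9 RPKM, and fell by 0.23 (SE 0.067, adjusted p = 0.00673). NAC chronic libraries had 72.7, 72.4 and 68.1 RPKM, a fall by 0.39 against vehicle chronic (SE 0.067, adjusted p = 4.00e-05). Polyclonal libraries overlapped, at 73.9, 68.5 and 65.9 against 69.7, 59.0 and 72.3 RPKM (log2 change -0.05, adjusted p = 0.491). Bak1 shares exon bases with Ggnbp1 on the opposite strand.

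**Figure D3:**
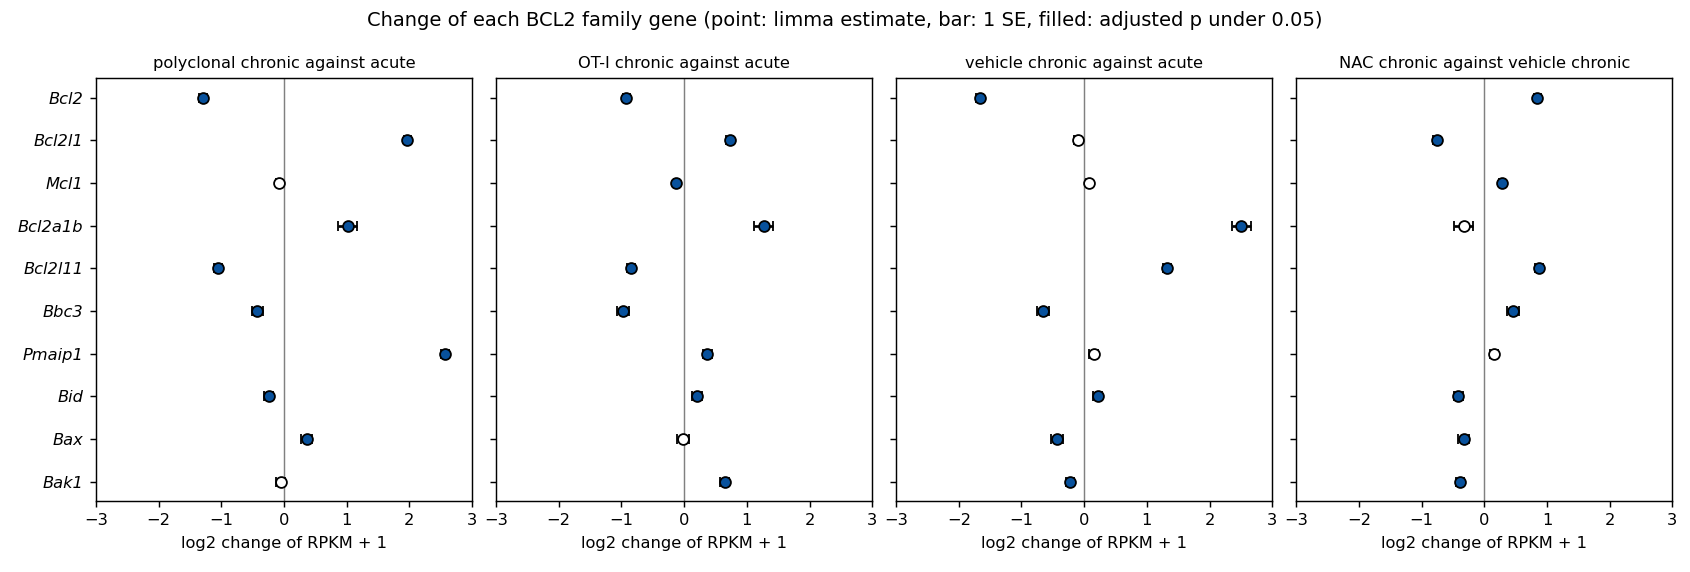
Log2 change of each gene on the log2(RPKM + 1) scale (x axis) in 4 comparisons, with points for the limma estimate, bars for 1 SE and filled points for adjusted p under 0.05. Bcl2 lies left of 0 in the 3 chronic against acute comparisons and at 0.85 for NAC against vehicle, and Bcl2l11 lies left of 0 in 2 and at 1.32 in the vehicle comparison.

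Repeated anti-CD3 in polyclonal cells was accompanied by lower Bcl2, Bcl2l11, Bbc3 and Bid and higher Bcl2l1, Bcl2a1b, Pmaip1 and Bax. These are 8 of the 10 members, in a comparison where 64.1% of all tested genes were called (28.6% higher and 35.5% lower). The 4 members that rose and the 4 that fell give a median log2 change of -0.06, beside -0.08 over all genes. At 2-fold or more 5 members were called, against 13.1% of genes. Of the wider pathway, the caspase list (the apoptosome, caspases and their inhibitors) had 7 of 18 genes higher and 7 lower (median 0.0072). The caspase gene Casp6 rose from 16.8 to 114 RPKM, and Birc5, the survivin gene, fell from 47.8 to 20.5 RPKM. In the death receptor list 6 of 12 rose and 5 fell (median 0.01), with Fasl down from 53.9 to 11.3, its receptor Fas up from 5.61 to 16.3 and Tnfrsf1a down from 21.03 to 5.18 RPKM. The list of cytokine survival signals had 8 of 14 higher and 3 lower (median 0.30). Its leading genes were Il2ra, the high-affinity IL-2 receptor chain, from 98.4 to 606 RPKM, Stat5a from 18.8 to 71.7 and Socs3 from 16.2 to 56.2. Of 18 regulators of the family 11 rose and 3 fell (median 0.28), among them the p53 relative Trp73 from 0.412 to 4.78, the NF-κB subunit gene Rel from 12.46 to 35.7 and the p53 antagonist Mdm2 from 43.6 to 94.1 RPKM. Of 10 tested further family genes 5 rose and 2 fell (median 0.38), with the survival gene Bcl2l2 up from 8.51 to 18.3 and the mitophagy receptor gene Bnip3l down from 38.9 to 19.9 RPKM. All 7 B cell markers and 3 of 4 CD4 markers rose in the same libraries, 4 of 7 CD8 T cell markers fell and 2 rose, and the part of those cells in these values was not tested.

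OT-I co-cultures with peptide had lower Bcl2, Bcl2l11, Bbc3 and Mcl1 and higher Bcl2l1, Bcl2a1b, Pmaip1, Bid and Bak1 than those without it. These 9 called members stand beside 58.6% of all genes called (22.4% higher and 36.2% lower). Rescaling the libraries moved the higher share of all called genes from 38.2% to 49.6%. The median log2 change of the members was 0.09, beside -0.12 over all genes, and 1 member was called at 2-fold or more, against 5.70% of genes. Melanocyte markers fell in the same libraries (9 of 12 called lower, none higher), and 5 of 7 B cell markers rose, to a sum of 41.4 RPKM from 9.25. Both tested NK cell markers rose, to a sum of 11.3 RPKM from 2.36, and 5 of 7 CD8 T cell markers fell and 1 rose. The part of these cells in the members' values was not tested. Among regulators 9 of 18 rose and 5 fell (median 0.21), led by the stress response genes Trib3, down from 253 to 40.1 RPKM, and Ddit3, the CHOP gene, down from 723 to 179, and by Rel, up from 4.18 to 9.15. In the death receptor list 8 of 12 rose and 1 fell (median 0.20), including the TRAIL gene Tnfsf10 from 6.52 to 13.1 RPKM, its receptor gene Tnfrsf10b from 3.95 to 7.29 and Tnf from 19.96 to 34.2. The caspase list had 7 of 18 higher and 6 lower (median -0.04), with Aifm1 up from 15.7 to 23.5 and Birc5 down from 30.1 to 20.8 RPKM. Cytokine survival genes had 5 of 14 higher and 3 lower (median 0.06), with Il2rb up from 236 to 415, Il2ra up from 197 to 320 and the kinase gene Pim2 down from 65.2 to 37.4 RPKM. Of 10 further family genes 1 rose, Bcl2a1d, and 5 fell (median -0.22), among them Bnip3l from 33.9 to 16.9 and the BH3-only gene Bmf from 4.50 to 2.69 RPKM.

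In the vehicle experiment chronically stimulated cells had lower Bcl2, Bbc3, Bax and Bak1 and higher Bcl2a1b, Bcl2l11 and Bid than acute ones. These 7 called members stand beside 58.9% of all genes (24.5% higher and 34.4% lower), with a median of -0.02 for the members and -0.03 over all genes. At 2-fold or more 3 were called, against 10.6% of genes. Cytokine survival genes had 10 of 14 higher and 3 lower (median 0.35), with Stat5a from 14.2 to 35.8, Jak3 from 66.2 to 157 and Il2rb from 482 to 1102 RPKM. Of the regulators 9 of 18 rose and 6 fell (median 0.17), led by Stat3 from 46.0 to 216, the NF-κB cofactor gene Bcl3 from 12.2 to 56.3 and Rel from 6.37 to 28.8 RPKM. The caspase list had 5 of 18 higher and 9 lower (median -0.19), with Birc2, the cIAP1 gene, up from 19.7 to 63.5, Casp6 up from 13.2 to 27.1 and Birc5 down from 75.4 to 29.04 RPKM. In the death receptor list 4 of 12 rose and 7 fell (median -0.27), with Tnfsf10 up from 8.16 to 62.2, Fas down from 12.4 to 5.70 and Tnfrsf1a down from 24.2 to 11.9 RPKM. Among 10 further family genes 4 rose and 3 fell (median -0.08), with Bcl2l2 up from 5.03 to 17.9 and the hypoxia-induced Bnip3 down from 71.6 to 25.2 RPKM. In the same comparison 4 of 6 myeloid markers rose, to a sum of 15.8 RPKM from 6.29, and none fell. Of 7 genes in the CD8 T cell list 4 rose and 2 fell, and of 4 CD4 markers 1 rose and 2 fell. The part of these cells was not tested.

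N-acetylcysteine during chronic stimulation was accompanied by higher Bcl2, Bcl2l11, Bbc3 and Mcl1 and lower Bcl2l1, Bid, Bax and Bak1 than in vehicle chronic cells. The 8 called members stand beside 61.1% of all genes (38.5% higher and 22.6% lower), and none reached 2-fold, against 9.29% of genes. The median RPKM over genes was 10.8 to 10.9 in the NAC chronic libraries and 9.46 to 9.52 in the vehicle chronic ones. Rescaling shifted this comparison by -0.17 on the log2 scale over all genes, and that with vehicle acute by -0.16. It moved the higher share of called genes from 63.0% to 45.1% and from 54.8% to 42.9%. The members' median was -0.09, beside 0.08 over all genes. All 4 CD4 markers rose in the same comparison, to a sum of 75.6 RPKM from 20.9, with Cd4 itself at 47.9 RPKM from 2.39. In the CD8 T cell list 4 of 7 genes rose, but Cd8a went from 145 to 138 RPKM while Cd8b1 went from 88.8 to 184. The part of such cells was not tested. Cytokine survival genes had 3 of 14 higher and 9 lower (median -0.38). The STAT5 target and feedback genes Socs3 and Cish fell from 13.3 to 3.15 and from 89.5 to 26.7 RPKM, and Il2ra from 346 to 112. Among regulators 6 of 18 rose and 8 fell (median -0.11), led by Trib3 from 16.9 to 6.50, Bcl3 from 56.3 to 23.5 and the stress response factor gene Atf4 from 288 to 157 RPKM. In the death receptor list 4 of 12 rose and 6 fell (median -0.20), with Fas up from 5.70 to 22.7, Tnfrsf1a up from 11.9 to 18.5 and Tnf down from 22.7 to 10.8 RPKM. The caspase list had 8 of 18 higher and 4 lower (median 0.11), with Dffb from 7.45 to 11.9 and Htra2 from 13.9 to 20.1 RPKM. Of 10 further family genes 4 rose and 2 fell (median -0.0036), with Bmf up from 2.18 to 6.45, Bcl2l14 up from 0.153 to 1.22 and Bnip3 down from 25.2 to 8.16 RPKM.

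Set against vehicle acute, NAC chronic cells differed in 9 members, beside 66.3% of all genes (36.3% higher and 29.9% lower). At 2-fold or more 2 were called, against 13.1%. The 2 comparisons share the NAC chronic libraries, and this one shares vehicle acute with the vehicle comparison. Bcl2a1b, Bcl2l11, Mcl1 and Pmaip1 were higher, with log2 changes of 2.172, 2.19, 0.35 and 0.30. Bcl2l1, Bcl2, Bax, Bak1 and Bid were lower, with changes of -0.87, -0.82, -0.77, -0.62 and -0.20, and Bbc3 was not called at -0.20 (adjusted p = 0.0691). Bbc3 was called without vehicle acute 1 (-0.25, adjusted p = 0.0390), on rescaling (-0.35, adjusted p = 0.00550), with only the compared groups in the fit (-0.20, adjusted p = 0.0360), with voom (-0.29, adjusted p = 0.0162) and without the 3 libraries with raised low genes (-0.20, adjusted p = 0.0228). Bid libraries overlapped, and the Bid call was lost without NAC chronic 3 (-0.14, adjusted p = 0.136), vehicle acute 1 (-0.17, adjusted p = 0.0858) or vehicle acute 2 (-0.18, adjusted p = 0.0748). Levels of the other lists' leading genes were 8.17 and 116 RPKM for Bcl2a1d, 71.6 and 8.16 for Bnip3, 19.7 and 58.4 for Birc2, 8.16 and 42.0 for Tnfsf10, 11.6 and 3.15 for Socs3 and 46.0 and 261 for Stat3, in vehicle acute and NAC chronic.

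The polyclonal and vehicle experiments have the same strain and stimulus in the labels, apart from the vehicle, yet 7 members differed between their chronic effects, against 52.4% of all genes (25.1% higher and 27.3% lower). Each difference is the vehicle change minus the polyclonal one. Bcl2l11 differed by 2.37 on the log2 scale (SE 0.087, adjusted p = 7.65e-15), Bcl2a1b by 1.48 (SE 0.21, adjusted p = 7.21e-06) and Bid by 0.46 (SE 0.10, adjusted p = 9.23e-04). Pmaip1 differed by -2.42 (SE 0.096, adjusted p = 2.85e-14), Bcl2l1 by -2.07 (SE 0.080, adjusted p = 1.88e-14), Bax by -0.80 (SE 0.13, adjusted p = 2.87e-05) and Bcl2 by -0.38 (SE 0.081, adjusted p = 5.76e-04). The differences for Mcl1 (0.14), Bbc3 (-0.23) and Bak1 (-0.17) were not called, but that for Mcl1 was without polyclonal chronic 3 (0.16, adjusted p = 0.0472), that for Bbc3 without polyclonal acute 1 (-0.32, adjusted p = 0.0390) and that for Bak1 without polyclonal chronic 2 (-0.26, adjusted p = 0.0117). Without the 3 libraries with raised low genes, Mcl1 (0.13, adjusted p = 0.0274) and Bak1 (-0.25, adjusted p = 0.00297) were called. Mcl1 was also called with only the compared groups in the fit (0.14, adjusted p = 0.0425). B cell and CD4 markers, low in the vehicle libraries, rose in polyclonal chronic, and their part in these differences was not tested.

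The OT-I effect differed from the polyclonal one in 7 members, against 55.8% of genes (26.6% higher and 29.2% lower), and from the vehicle one in 8, against 58.5% (27.4% higher and 31.1% lower). Differences of 2-fold or more were called for 2, 4 and 2 members in the comparisons of OT-I with polyclonal, vehicle with polyclonal and OT-I with vehicle effects, against 14.3%, 12.4% and 14.7% of genes. From the polyclonal effect, Pmaip1 differed by -2.20 (SE 0.096, adjusted p = 1.51e-13), Bcl2l1 by -1.24 (SE 0.080, adjusted p = 6.70e-11) and Bak1 by 0.70 (SE 0.095, adjusted p = 2.90e-06). Bcl2l11 was not called there, at 0.21 (SE 0.087, adjusted p = 0.0507), but was without polyclonal chronic 2 (0.23, adjusted p = 0.0408), OT-I acute 3 (0.23, adjusted p = 0.0325) or OT-I chronic 3 (0.25, adjusted p = 0.0228). This difference was also called on rescaling (0.26, adjusted p = 0.0132), with a filter of RPKM 5 (0.21, adjusted p = 0.0457) and without the 3 libraries with raised low genes (0.27, adjusted p = 0.0239). From the vehicle effect, Bcl2l11 differed by -2.17 (SE 0.087, adjusted p = 3.79e-14), Bcl2a1b by -1.23 (SE 0.21, adjusted p = 5.63e-05), Bak1 by 0.87 (SE 0.095, adjusted p = 1.40e-07) and Bcl2l1 by 0.83 (SE 0.080, adjusted p = 2.54e-08). Cells, stimulus and culture differ together between these experiments and cannot be told apart.

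**Figure D4:**
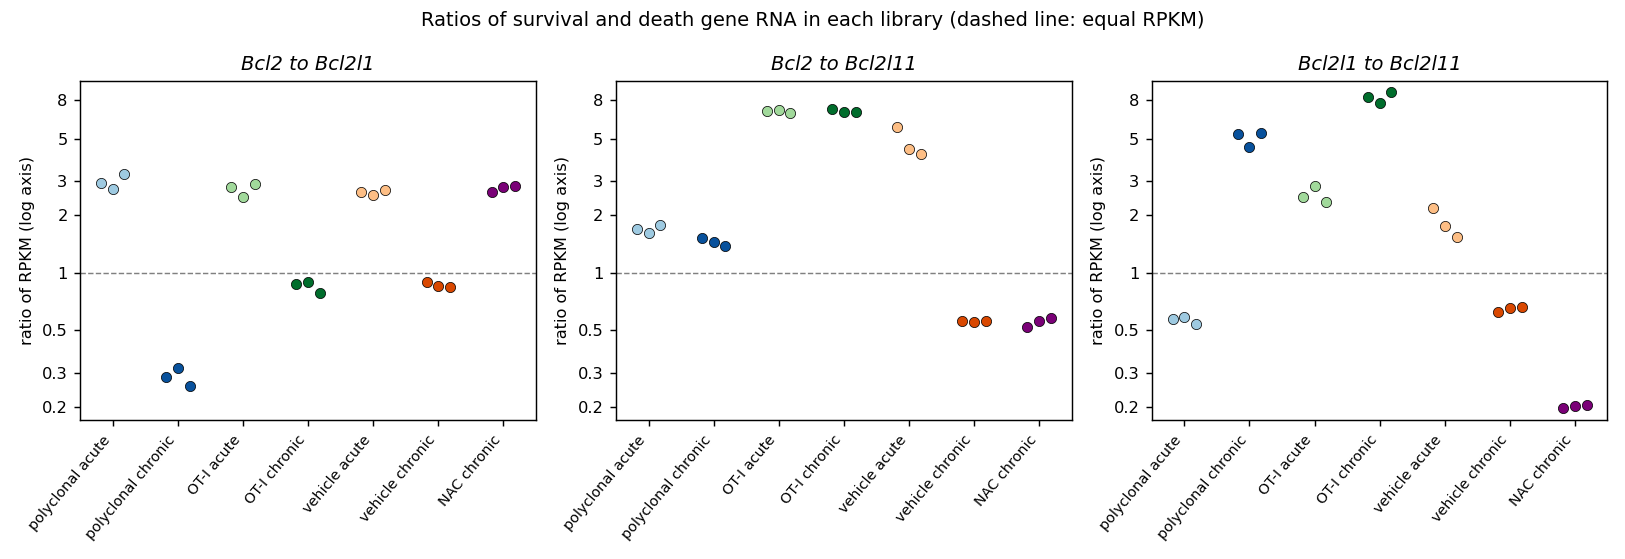
Ratio of RPKM between 2 members (y axes, log scale) in every library of the 7 groups, with a dashed line at equal RPKM. The ratio of Bcl2 to Bcl2l1 lies above 1 in the 3 acute groups and in NAC chronic and below 1 in the 3 chronic groups without NAC.

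Ratios of RPKM between members were computed per library as a description, with no test. The ratio of Bcl2 to Bcl2l1 separated the groups in the same way in all experiments. It was 2.99 ± 0.275 in polyclonal acute, 2.74 ± 0.224 in OT-I acute and 2.63 ± 0.0894 in vehicle acute, and 0.287 ± 0.0322, 0.853 ± 0.0582 and 0.864 ± 0.0294 in the chronic groups. NAC chronic, at 2.75 ± 0.101, lay within the range of the acute libraries (2.49 to 3.29) and not in that of the chronic ones (0.255 to 0.899). In NAC chronic Bcl2 was higher and Bcl2l1 lower than in vehicle chronic. Against vehicle acute both were lower, at 43.2 against 77.4 RPKM for Bcl2 and 15.7 against 29.5 RPKM for Bcl2l1. The ratio of Bcl2 to Bcl2l11, a survival gene to a killer gene, gave another order. It was 6.97 ± 0.125 and 7.01 ± 0.144 in OT-I acute and chronic, 1.69 ± 0.0768 and 1.45 ± 0.0726 in polyclonal acute and chronic, and 4.79 ± 0.854 in vehicle acute. It was lowest in vehicle chronic (0.559 ± 0.00394) and NAC chronic (0.553 ± 0.0301), whose libraries overlapped.

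Bcl2l1 to Bcl2l11 was 0.567 ± 0.0263 in polyclonal acute and 5.06 ± 0.479 in polyclonal chronic, and 2.56 ± 0.261 and 8.24 ± 0.551 in the OT-I groups. In the vehicle experiment the order was the opposite, with 1.82 ± 0.326 in the acute, 0.648 ± 0.0196 in the chronic and 0.201 ± 0.00375 in the NAC chronic group. Mcl1 to Pmaip1 was 1.48 ± 0.0496 in polyclonal chronic and between 5.24 and 9.84 in the means of the other 6 groups. Bcl2 to Bax was 0.405 ± 0.0335, 0.484 ± 0.102 and 0.351 ± 0.0446 in the acute groups, 0.125 ± 0.0189, 0.254 ± 0.0233 and 0.144 ± 0.00117 in the chronic ones and 0.333 ± 0.00984 in NAC chronic.

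**Figure D5:**
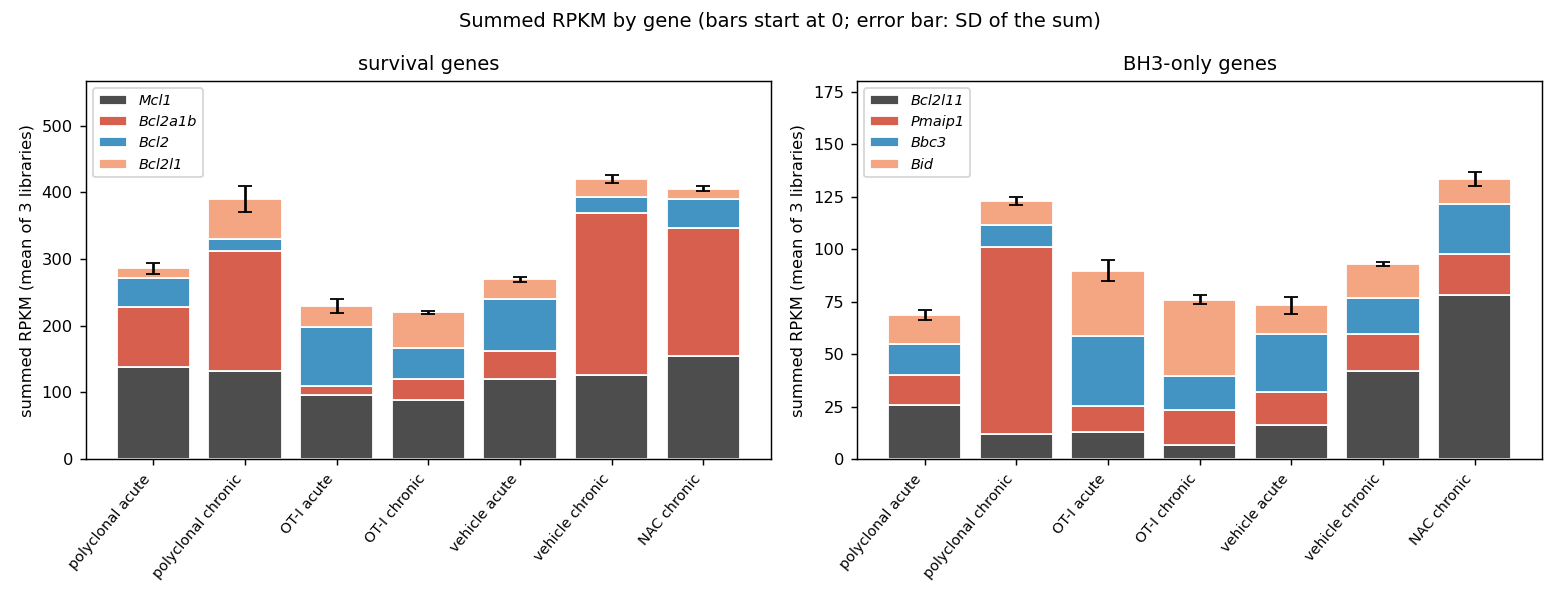
Summed RPKM (y axes, from 0) of the 4 survival genes and of the 4 BH3-only genes in the 7 groups, stacked by gene as means of 3 libraries, with the SD of the sum as error bars. Bcl2a1b makes up 57.7% of the survival sum in vehicle chronic and Pmaip1 72.3% of the BH3-only sum in polyclonal chronic. The survival sum leaves out the copy Bcl2a1d.

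The summed level of the 4 survival genes was 286 ± 8.06 RPKM in polyclonal acute and 390.4 ± 19.8 in polyclonal chronic, and 269.7 ± 3.46 and 419.9 ± 5.84 RPKM in the vehicle groups. In OT-I co-cultures it was 230.2 ± 10.6 and 220.3 ± 2.27 RPKM, and in NAC chronic 406 ± 3.30. These sums leave out the copy Bcl2a1d and so hold only part of the RNA that encodes A1. Bcl2a1d had 28.8 RPKM in polyclonal acute and 102 in polyclonal chronic, and 2.19 and 11.3 RPKM in the OT-I groups. It had 8.17 and 143 RPKM in the vehicle groups and 116 in NAC chronic. The shares of single genes in these sums differed between the groups as well. Bcl2a1b went from 31.1% to 46.4% of the sum in polyclonal cells, from 5.59% to 14.3% in OT-I co-cultures and from 15.6% to 57.7% in vehicle cells, and Bcl2 from 15.3% to 4.44%, from 38.5% to 20.99% and from 28.7% to 5.63%. NAC chronic had 47.5% Bcl2a1b and 10.7% Bcl2.

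The BH3-only sum was 68.7 ± 2.39 RPKM in polyclonal acute, 89.9 ± 4.83 in OT-I acute and 73.3 ± 4.19 in vehicle acute, and 123 ± 1.83, 76.0 ± 2.24 and 92.9 ± 1.01 in the chronic groups. It was 133 ± 3.27 RPKM in NAC chronic. The gene with the largest share differed between the chronic groups of the 3 experiments. Pmaip1 held 72.3% in polyclonal chronic, Bid 47.8% in OT-I chronic and Bcl2l11 45.4% in vehicle chronic and 58.7% in NAC chronic. In the acute groups the largest shares were 37.8% for Bcl2l11 in polyclonal, 36.5% for Bbc3 in OT-I and 37.5% for Bbc3 in vehicle cells.

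Genes whose group means followed a member most closely were ranked by Pearson's r of the mean log2(RPKM + 1) over the 7 groups, which is a description over few points that share libraries and depth. Bcl2 was followed by Nbn (0.968), Aspscr1 (0.964) and Paip2b (0.963), Bcl2l1 by Fkbp1a (0.975), Cdkn1a (0.971) and Osm (0.958), and Mcl1 by Wdr20 (0.990), Ccni (0.988) and Prickle3 (0.988). For Bcl2a1b the nearest was its copy Bcl2a1d (0.988), before Man1a (0.973) and Plek (0.960). Bcl2l11 was followed by Igflr1 (0.989), Nmb (0.973) and Stat4 (0.972), Bbc3 by Rfxap (0.989), Cby1 (0.970) and Aurkaip1 (0.969), and Pmaip1 by Lama5 (0.978), Slc4a7 (0.976) and Il4 (0.971). Bid was followed by Zfp608 (0.992) and Zfp239 (0.991), Bax by Thyn1 (0.991), Serbp1 (0.983) and Pop4 (0.981), and Bak1 by Cdc37 (0.986), Sephs2 (0.974) and Ccdc124 (0.961).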

How the data were processed

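Per the labels' protocols, Trizol was used for extraction and a NEBNext Ultra kit for libraries of poly(A) RNA. Whether strand was kept is not given there. Named in the submitters' processing notes, with no role or order, are mm9, edgeR, HTSeq and bcl2fastq 2.17. The aligner and annotation were not given in the sources used here. A single table of RPKM values for 21 libraries, deposited by the authors, was used. Whole reads were recovered from these values for 100% of genes (tolerance 0.001 reads), which gave the depths.

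A gene was kept where 3 or more libraries reached RPKM 1, and log2(RPKM + 1) was fitted with limma 3.58.1 in R 4.3.3, as 7 group means with a trend, 14 residual degrees of freedom, two-sided tests and Benjamini-Hochberg adjustment over 12630 genes. The test was run on simulated reads with the same spread for every gene and no raised libraries. That run cannot show how the test behaves with the spread of these libraries. The members and lists were chosen with earlier results of these data known. All members were named, with up to 3 genes of each pathway list by the largest called change (higher group mean at RPKM 1 or above), and 3 genes most like each member. Foxo3 is named besides. Some genes that this rule selects are not reported here.

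The 21 pairs of libraries within groups were not identical, and their chi-square per gene was 1.52 to 54.6, where counting error alone gives about 1. Same-numbered polyclonal libraries deviated together from their group means (r of 0.446, 0.629 and 0.168), each r being over 0.1. This is a hint of pairs from the data only, since acute 1 with chronic 3 (0.569) and acute 3 with chronic 1 (0.134) were positive as well. The main fit held no replicate block, so the SE and adjusted p given with each gene do not use such pairs. In the other experiments r lay between -0.167 and 0.0790. Alternatives were another pseudocount, other filters, rescaling of libraries to a common median, a fit of the compared groups alone, a replicate block, a 2-fold threshold, voom on the recovered reads and leaving out each library. A fit without the 3 libraries with raised low genes was added after seeing the data.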

Additional observations from a re-analysis of the deposited data

Results flagged for a closer look

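In each of the following members the change with chronic stimulation differed between 2 experiments in a test of the difference itself, fitted with limma and adjusted over all genes. The OT-I experiment differs from the other 2 in cells, stimulus and culture, which cannot be told apart. The labels give the polyclonal and vehicle experiments the same strain and stimulus, apart from the vehicle.

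The vehicle change minus the polyclonal change was 2.37 on the log2 scale for Bcl2l11, 1.48 for Bcl2a1b and 0.46 for Bid. It was -2.42 for Pmaip1, -2.07 for Bcl2l1, -0.80 for Bax and -0.38 for Bcl2. Bcl2l11, Bax and Bid went in opposite directions in the 2 experiments, each called in both, while Bcl2 fell in both. For Bid the polyclonal libraries overlapped, and both calls were lost in some alternatives. There its adjusted p reached 0.325 in polyclonal and 0.0981 in vehicle cells.

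The OT-I change minus the polyclonal change was -2.20 for Pmaip1, -1.24 for Bcl2l1, -0.55 for Bbc3 and -0.38 for Bax. It was 0.70 for Bak1, 0.45 for Bid and 0.37 for Bcl2. Pmaip1 and Bcl2l1 rose in both experiments and by less in OT-I co-cultures. The call for Bax was lost without OT-I acute 2 (-0.27, adjusted p = 0.0558) or polyclonal chronic 3 (-0.30, adjusted p = 0.0569), on rescaling (-0.33, adjusted p = 0.0718) and with only the compared groups in the fit (-0.38, adjusted p = 0.0632).

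The OT-I change minus the vehicle change was -2.17 for Bcl2l11, -1.23 for Bcl2a1b, -0.32 for Bbc3 and -0.19 for Mcl1. It was 0.87 for Bak1, 0.83 for Bcl2l1, 0.75 for Bcl2 and 0.42 for Bax. Bak1 rose in OT-I co-cultures and fell in vehicle cells, and the Bcl2l11 changes were opposite. The call for Mcl1 was lost on rescaling (-0.12, adjusted p = 0.231) and with voom (-0.16, adjusted p = 0.138). The call for Bbc3 was lost in 9 of 12 fits that left out 1 library, with values from -0.34 to -0.26, on rescaling (-0.25, adjusted p = 0.160) and with voom (-0.31, adjusted p = 0.0688). Pmaip1, not called at 0.22 (adjusted p = 0.0558), was called without OT-I acute 1 (0.26, adjusted p = 0.0379), OT-I chronic 3 (0.27, adjusted p = 0.0294) or vehicle acute 1 (0.27, adjusted p = 0.0301). Its difference was called as well on rescaling (0.29, adjusted p = 0.0149), with voom (0.25, adjusted p = 0.0311) and with only the compared groups in the fit (0.22, adjusted p = 0.0483).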

How the results depend on the processing

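Apart from a 2-fold threshold, 34 of 50 member results in the comparisons of 2 groups kept their direction and their side of the threshold under every alternative, and 649 of 700 single recomputations did. Under a 2-fold threshold the genes and members called were 1653 and 5 in the polyclonal, 720 and 1 in the OT-I and 1340 and 3 in the vehicle comparison. They were 1173 and 0 for NAC chronic against vehicle chronic and 1652 and 2 against vehicle acute. For differences between experiments they were 1806 and 2 (OT-I from polyclonal), 1562 and 4 (vehicle from polyclonal) and 1861 and 2 (OT-I from vehicle). Every direction that turned was that of a member not called in the fit of all libraries, and the cause was not tested. On rescaling to a common median these were Bax in OT-I co-cultures (0.071), Pmaip1 in NAC against vehicle chronic (-0.014), and the differences of OT-I from polyclonal for Mcl1 (0.0017) and of OT-I from vehicle for Bid (0.061). With voom on recovered reads they were Mcl1 (0.027) and Bak1 (0.047) in polyclonal cells, Bax in OT-I co-cultures (0.083) and the difference of OT-I from vehicle for Bid (0.0089). Without the 3 libraries with raised low genes they were Bak1 in polyclonal cells (0.024) and the differences of OT-I from polyclonal for Bcl2a1b (-0.089) and of OT-I from vehicle for Bid (0.00091). Leaving out 1 library at a time, Bak1 in polyclonal cells ran from -0.11 to 0.033 (the latter without polyclonal chronic 2), Bax in OT-I co-cultures from -0.16 to 0.089, Bcl2a1b in the difference of OT-I from polyclonal from -0.049 (without OT-I acute 3) to 0.46 (called, without OT-I acute 2), and Bid in that of OT-I from vehicle from -0.045 to 0.045.

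Calls were lost for small changes. Mcl1 in OT-I co-cultures was not called on rescaling, with only the compared groups (adjusted p = 0.129), with voom (adjusted p = 0.784) or without any 1 of the 3 libraries given with its values. Bid was not called in polyclonal cells with only the compared groups (adjusted p = 0.0558), or with voom (adjusted p = 0.325), beside the losses given with its values. With voom, Bak1 in vehicle cells (adjusted p = 0.128) and Mcl1 in NAC against vehicle chronic (adjusted p = 0.0762) were not called. Against vehicle acute, the Pmaip1 call was lost on rescaling (adjusted p = 0.0523). Bax in OT-I co-cultures was called without the 3 libraries with raised low genes (-0.16, adjusted p = 0.0359). Over all alternatives but the 2-fold threshold, the adjusted p ran from 1.72e-04 to 0.784 for Mcl1 and from 1.21e-04 to 0.0763 for Bid in OT-I co-cultures, from 0.00119 to 0.325 for Bid in polyclonal cells, from 0.00144 to 0.0981 for Bid, from 0.00699 to 0.253 for Pmaip1 and from 9.43e-05 to 0.128 for Bak1 in vehicle cells. In NAC against vehicle chronic it ran from 1.60e-07 to 0.122 for Mcl1, from 1.15e-05 to 0.133 for Bcl2a1b and from 0.0142 to 0.9096 for Pmaip1, and against vehicle acute from 4.69e-04 to 0.136 for Bid and from 0.00550 to 0.296 for Bbc3. On rescaling 53 of 70 group levels moved by more than 1 SD.

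With the replicate number as a block in each experiment, 8661 genes and 8 members were called in polyclonal cells. The main fit, without a block, called 8097 genes and 8 members. No member's call changed there. In the other experiments the values of r gave no hint of pairs by number, but the block was fitted there as well. There the block made 3 calls, all of Pmaip1, in vehicle chronic against acute, NAC against vehicle chronic and the difference of OT-I from vehicle (0.22, adjusted p = 0.0235). Depth limits Bcl2a1b in OT-I acute 3 most, where it rested on 78 reads.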

Other observations

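Foxo3, which encodes a FOXO factor and was named after its values were seen, fell from 12.1 to 6.82 RPKM between vehicle acute and vehicle chronic and was 11.8 RPKM in NAC chronic, above vehicle chronic in the same test. Bcl2l11 rose in both of these comparisons.

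Over the 7 group means of log2(RPKM + 1), Pearson's r between members was highest in size for Mcl1 and Bid (-0.942), Bcl2 and Bbc3 (0.861), Bcl2 and Bcl2a1b (-0.822), Mcl1 and Bcl2l11 (0.807), Mcl1 and Bcl2a1b (0.803) and Bcl2l1 and Bcl2l11 (-0.792). These values describe 7 groups that share experiments, and carry no test.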
